A study of Mus musculus with 21 samples.

Results

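The 8 heart libraries of the BL6J background, which the series text writes as C57/J, were compared, 4 from Taz knockout males and 4 from their controls, out of 21 libraries in the whole series. The choice rests on strain and genotype as labelled. BL6J KO were hearts of mice labelled TAZ KO/Y and BL6J WT were hearts of WT/Y littermates, all aged 2 months, with ventricular tissue used for RNA. No agent or diet is named for either group. AJ-F1 (3 KO and 4 WT libraries) and CAST-F1 (3 KO and 3 WT libraries), with the same genotypes and age, entered the fit and the test of whether the BL6J response differed. The exons removed from Taz, and whether the deletion acts in every cell, are not given in the sources used here, so the hearts cannot be described as a model beyond the label. PolyA RNA was sequenced in stranded libraries, and total counts ran from 4408874 to 5545328 in BL6J KO and from 4322220 to 6777826 in BL6J WT.

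Tafazzin, the protein of Taz, is an acyltransferase that gives cardiolipin its mature fatty acids, and cardiolipin holds the respiratory complexes and many carriers in the inner mitochondrial membrane. In people, loss of the gene causes Barth syndrome, with weak heart muscle. Cells answer many mitochondrial faults through the integrated stress response, in which phosphorylation of the initiation factor eIF2 slows general translation while ATF4 and its partners switch on genes for amino acid supply, tRNA charging and secreted signals.

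Levels are given in CPM, read counts scaled to a common library size with TMM factors, for libraries 1 to 4 of each group. The log2 fold change is that of KO over WT from edgeR's quasi-likelihood test, with p-values adjusted by the Benjamini-Hochberg method over 12333 genes. It is given ± an approximate standard error, since the test itself returns none. That error is the absolute log2 fold change divided by the square root of the test's F statistic, and it is rough for genes with few reads. A gene "rose" or "fell" where its adjusted p was under 0.05, and the size after "rose by" or "fell by", and any bare value with ± in brackets, is on the log2 scale. Taz (chromosome X, 74281912 to 74290151, GRCm38) had 6.07, 5.94, 5.84 and 5.51 CPM in KO 1 to 4, against 43.8, 47.4, 42.1 and 41.9 CPM in WT 1 to 4. Every KO library was below every WT library, and the KO mean was 13.3% of the WT mean (log2 fold change of Taz -2.90 ± 0.20, adjusted p = 5.5e-10). The reads that are left cannot be placed within the gene in these data. Dnase1l1, whose annotated span overlaps Taz, stood at 7.16 ± 1.38 CPM in KO and 6.83 ± 0.473 CPM in WT (SD, n = 4 each) and was not called. Of 31 genes annotated within 250 kb of Taz, 14 were tested, 2 rose and 0 fell, with a median log2 fold change of 0.08. Rpl10, a ribosomal protein gene, rose by 1.25 ± 0.14, and Slc10a3, a transporter-like gene, rose by 0.68 ± 0.21. Slc10a3 was no longer called under 5 of 16 alternatives, with adjusted p up to 0.061, among them without KO 1, without KO 3, without WT 3 and without WT 4.

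Across all genes tested, BL6J KO had 1583 that rose (12.8%) and 1173 that fell (9.51%), a sum of 2756 (22.3%). Counts of list members below are to be read beside these shares, and a count near them says nothing particular about its list. The median log2 fold change of all genes was 0.01. Changes past 2-fold numbered 634 among the genes that rose and 378 among those that fell, and changes past 16-fold numbered 57 and 8. All 4 KO libraries lay above all 4 WT libraries for 1907 genes (15.5%) and below them for 1587 (12.9%). Genes that rose took 204142 CPM of the KO libraries and 105031 CPM of the WT libraries on average, and genes that fell took 183974 CPM in KO and 297364 CPM in WT. The median length of annotated exons was 3747 bases for genes that rose, 4577 for genes that fell and 4743 for genes not called. The part of this length difference in the calls was not tested.

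**Figure D1:**
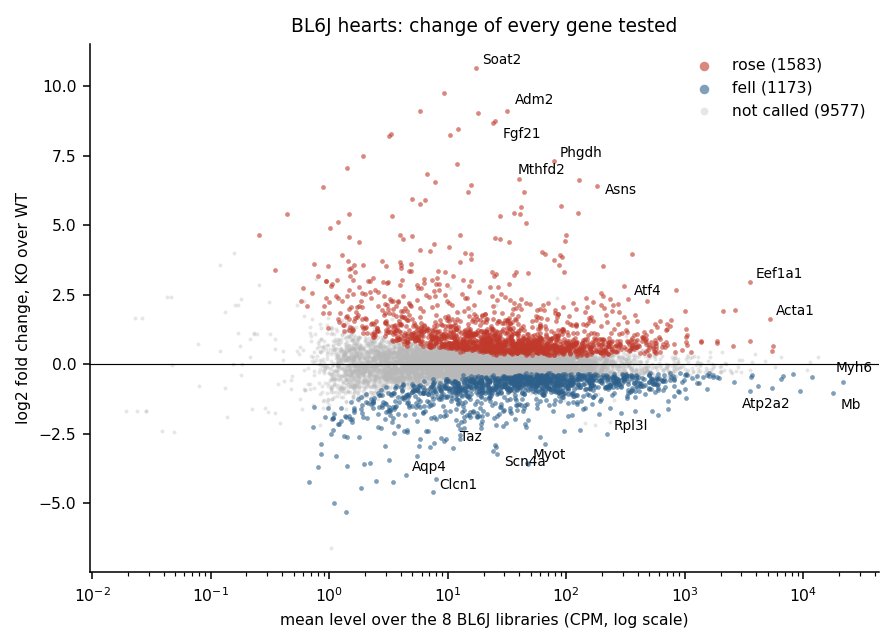
Log2 fold change of KO over WT for each of the 12333 genes tested (vertical axis) against its mean level over the 8 BL6J libraries in CPM (log scale, horizontal axis). Red points rose (1583), blue points fell (1173) and grey points were not called; the highest labelled point is Soat2, and Taz lies among the falls.

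Some libraries stood apart within their group. The first principal component of the 8 libraries held 58.5% of the variance and placed KO 1 to 4 at -42.6, -20.1, -44.7 and -46.7, against 31.4, 37.8, 43.2 and 41.8 for WT 1 to 4. KO 2 was therefore the KO library nearest to WT. It was the lowest KO library for 941 of the 1583 genes that rose (59.4%) and the highest KO library for 607 of the 1173 that fell (51.7%). Without KO 2, 1649 genes rose and 1294 fell. WT 1 was the highest WT library for 710 of the genes that rose (44.9%). Pairwise correlations ran from 0.963 to 0.977 among KO libraries, from 0.973 to 0.980 among WT libraries and from 0.916 to 0.953 between them. No library went against its label in Taz.

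At the sensing end of the stress response, none of the kinases that phosphorylate eIF2 was called. Eif2ak1 (HRI), which is activated by iron shortage and mitochondrial stress, had 62.3, 60.5, 65.3 and 76.6 CPM in KO 1 to 4, against 61.8, 68.0, 53.5 and 68.0 CPM in WT 1 to 4. The groups overlapped (log2 fold change of Eif2ak1 0.07 ± 0.14, adjusted p = 0.76). Eif2ak3 (PERK, the sensor of the endoplasmic reticulum) and Eif2ak4 (GCN2, the sensor of uncharged tRNA) had log2 fold changes of -0.03 ± 0.18 and -0.04 ± 0.22. Dele1, which in human cells carries the signal of the stressed mitochondrion to HRI, had 173, 163, 139 and 179.9 CPM in KO 1 to 4, against 331, 337, 324 and 369 CPM in WT 1 to 4. All KO libraries were lower (log2 fold change of Dele1 -1.05 ± 0.18, adjusted p = 2.0e-04). Oma1, the protease that cuts it, stood at 23.4 ± 3.48 CPM in KO and 30.2 ± 1.98 CPM in WT (SD, n = 4 each) and was not called (log2 fold change of Oma1 -0.37 ± 0.15, adjusted p = 0.075). Ppp1r15a (GADD34), a phosphatase subunit that resets eIF2, rose by 0.85 ± 0.22. Eif2b3, a subunit gene of the exchange factor that eIF2 phosphorylation blocks, rose by 1.28 ± 0.21. In the list of 14 such genes tested, 4 rose and 1 fell, with a median log2 fold change of 0.16.

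Of 17 stress transcription factors tested, 9 rose and 0 fell, with a median log2 fold change of 0.45. Atf4, the central factor, had 629, 402, 575 and 619 CPM in KO 1 to 4, against 121, 116, 95.6 and 107 CPM in WT 1 to 4. Atf5, a relative that acts in mitochondrial stress, had 797, 745, 489 and 649 CPM in KO 1 to 4, against 48.7, 46.2, 28.7 and 48.4 CPM in WT 1 to 4. The groups were separate for both, and KO 2 was the lowest KO library for Atf4 (log2 fold change of Atf4 2.34 ± 0.17, adjusted p = 7.5e-10, log2 fold change of Atf5 3.96 ± 0.23, adjusted p = 2.1e-11). Nupr1, a small chromatin protein of stressed cells, rose by 4.39 ± 0.28 and Myc, a growth factor-controlled activator of ribosome and nucleotide genes, rose by 3.20 ± 0.34. Ddit3 (CHOP) and Cebpg, which encode partners of ATF4, rose by 1.99 ± 0.23 and 1.72 ± 0.23. Atf6, the membrane-bound factor of the endoplasmic reticulum, rose by 0.95 ± 0.17, with 300.4 ± 47.5 CPM in KO and 156 ± 15.7 CPM in WT (SD, n = 4 each). Xbp1, the other reticulum factor, was at 105 ± 17.9 CPM in KO and 91.0 ± 9.20 CPM in WT (SD, n = 4 each) and was not called. Atf3, an early stress factor, was not called either, with 83.5, 29.9, 89.1 and 88.1 CPM in KO 1 to 4, against 28.1, 66.9, 15.0 and 63.0 CPM in WT 1 to 4. KO 2 stood far below the other KO libraries, and the groups overlapped.

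Stress effectors, some of them known as targets of these factors, held some of the largest rises. Their list was chosen with earlier results of these data known, holds Soat2 and shares Nars with the tRNA synthetases. Of 17 stress effectors tested, 11 rose and 2 fell, with a median of 1.69. Trib3, a pseudokinase that feeds back on ATF4, had 186, 109.5, 220.0 and 198 CPM in KO 1 to 4, against 4.77, 3.82, 2.50 and 2.41 CPM in WT 1 to 4. Chac1, which degrades glutathione, had 188, 113, 135 and 156 CPM in KO 1 to 4, against 16.8, 10.5, 7.06 and 9.23 CPM in WT 1 to 4. KO and WT did not overlap for either (log2 fold change of Trib3 5.68 ± 0.30, adjusted p = 5.3e-12, log2 fold change of Chac1 3.74 ± 0.36, adjusted p = 8.1e-08). Sesn2, a restraint on mTORC1, rose by 3.25 ± 0.26, Eif4ebp1, a brake on cap-dependent translation, by 1.69 ± 0.19, and Cdkn1a (p21), a cell cycle inhibitor, by 2.24 ± 0.40. Stbd1, which ties glycogen to membranes, had 118 ± 45.6 CPM in KO and 7.17 ± 2.48 CPM in WT (SD, n = 4 each, log2 fold change of Stbd1 4.02 ± 0.32, adjusted p = 5.5e-09). Vldlr, a lipoprotein receptor, fell by 1.11 ± 0.23.

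Promoter sequences of RefSeq (GRCm38.p6, 250 bases before to 50 after the annotated start) were searched on both strands for TGATGNAA, the core of the C/EBP-ATF response element to which ATF4 dimers bind. Counted by single windows, with those of untested genes included, it was present in 3.97% of all 32851 windows. Counted by gene, it was present in 269 of the 9681 tested genes with a window (2.78%). Among these genes it was present in 48 of 1256 that rose (3.82%), in 27 of 905 that fell (2.98%) and in 2.58% of those not called. Of the 12 cytosolic tRNA synthetase genes with a window, 5 held it, and of 13 genes each in the lists of stress effectors and of asparagine, proline, sulphur and transamination enzymes, 3 held it. It was in 3 of 15 amino acid transporters, 2 of 14 stress transcription factors, 1 of 16 secreted signals, 1 of 24 glutathione and NRF2 targets and 0 of 14 serine, glycine and one-carbon enzymes. Not all genes that held it rose. Vldlr among the stress effectors held it and fell, and Atf3 among the stress transcription factors held it and was not called. The 250 bases before the start are shown for 5 genes that rose and hold the element, with the element in capitals, since they let the same core be seen in an enzyme of asparagine synthesis, one of proline synthesis, a cystine carrier, a tRNA synthetase and a hormone. A match is a description of the letters and not a binding site.
Asns (chr6:7693210-7693459, minus strand): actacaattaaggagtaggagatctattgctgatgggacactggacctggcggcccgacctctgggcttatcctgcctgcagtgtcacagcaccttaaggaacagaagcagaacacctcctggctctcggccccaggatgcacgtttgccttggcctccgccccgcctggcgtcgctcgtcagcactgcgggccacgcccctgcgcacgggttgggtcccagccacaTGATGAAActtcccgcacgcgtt
Pycr1 (chr11:120643749-120643998, minus strand): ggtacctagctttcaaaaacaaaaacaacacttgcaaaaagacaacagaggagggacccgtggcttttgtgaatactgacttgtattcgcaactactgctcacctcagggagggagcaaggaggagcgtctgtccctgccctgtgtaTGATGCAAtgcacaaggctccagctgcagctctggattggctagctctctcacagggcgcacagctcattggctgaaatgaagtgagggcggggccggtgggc
Slc7a11 (chr3:50443614-50443863, minus strand): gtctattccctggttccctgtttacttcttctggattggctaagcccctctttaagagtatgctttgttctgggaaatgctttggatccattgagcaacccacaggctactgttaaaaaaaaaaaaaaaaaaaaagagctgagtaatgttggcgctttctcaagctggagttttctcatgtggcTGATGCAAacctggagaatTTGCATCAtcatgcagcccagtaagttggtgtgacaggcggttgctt
Gars (chr6:55037751-55038000, plus strand): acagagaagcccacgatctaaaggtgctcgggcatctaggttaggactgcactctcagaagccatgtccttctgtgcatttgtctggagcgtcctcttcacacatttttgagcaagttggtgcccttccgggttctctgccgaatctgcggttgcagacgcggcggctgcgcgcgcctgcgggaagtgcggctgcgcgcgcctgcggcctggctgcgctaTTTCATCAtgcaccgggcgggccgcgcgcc
Fgf21 (chr7:45615491-45615740, minus strand): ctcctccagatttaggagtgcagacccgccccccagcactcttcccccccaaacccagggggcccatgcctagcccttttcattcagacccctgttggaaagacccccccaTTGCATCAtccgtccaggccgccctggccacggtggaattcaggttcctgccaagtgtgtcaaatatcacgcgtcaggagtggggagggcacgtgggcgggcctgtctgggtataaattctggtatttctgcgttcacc
The element began 23 bases before the start of Asns, 103 before Pycr1, 30 before Gars and 139 before Fgf21, and Slc7a11 held a pair of matches on opposite strands that began 66 and 47 bases before it. Asns and Pycr1 carried the core on the gene's own strand, and Gars and Fgf21 on the other one.

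**Figure D2:**
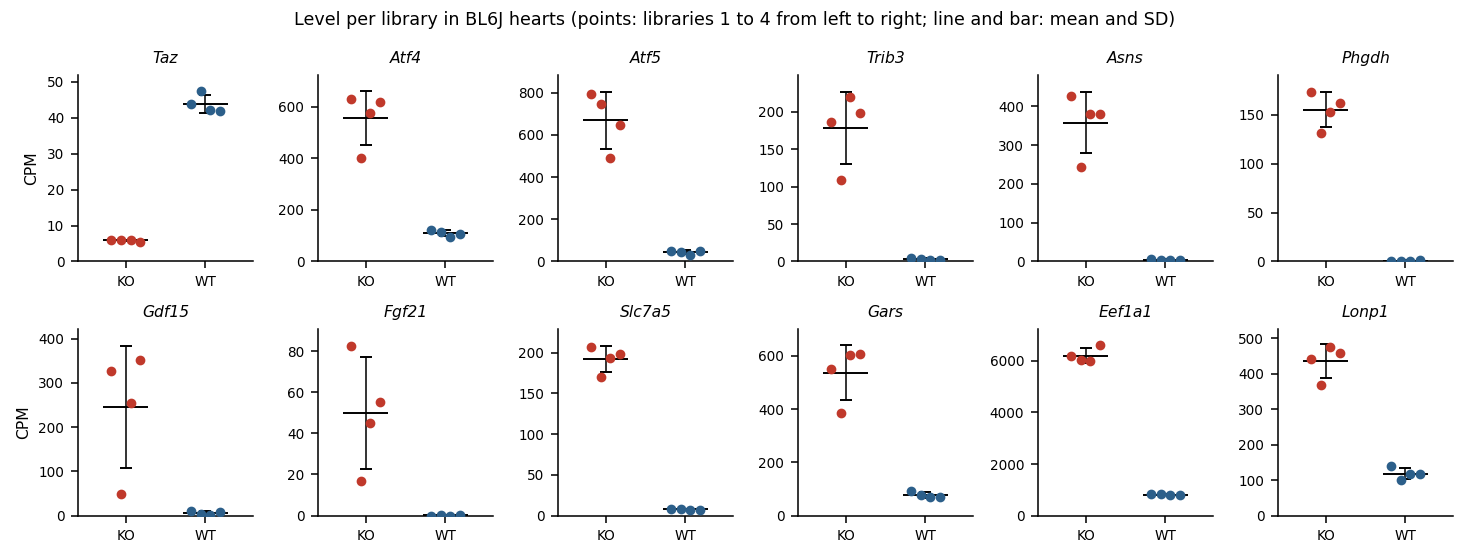
Level in CPM (vertical axes, each from 0) of Taz and 11 genes of the stress response, amino acid supply, translation and mitochondrial proteolysis in BL6J KO (red, left) and WT (blue, right). Points are libraries 1 to 4, lines the mean and bars the SD; apart from Taz, all KO libraries lie above all WT libraries, and KO 2 is low for Gdf15 at 48.2 CPM.

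Secreted signals of stressed tissue were among the largest rises. Of 22 tested, 10 rose and 2 fell. Fgf21, a hormone that acts on fat and brain, had 82.4, 16.8, 44.8 and 55.4 CPM in KO 1 to 4, against 0, 0.191, 0 and 0.201 CPM in WT 1 to 4. Gdf15, which lowers appetite through a hindbrain receptor, had 327, 48.2, 255 and 352 CPM in KO 1 to 4, against 9.99, 2.67, 1.82 and 7.22 CPM in WT 1 to 4. KO 2 was the lowest KO library for both, yet above every WT library; without it the log2 fold changes were 9.03 and 5.78. Adm2, a peptide of the adrenomedullin family, had 81.3, 41.4, 47.4 and 83.2 CPM in KO 1 to 4, against 0, 0.191, 0 and 0.201 CPM in WT 1 to 4. Ostn, the muscle peptide osteocrin, had 73.6, 31.2, 39.7 and 45.9 CPM in KO 1 to 4, against 0, 0, 0 and 0.401 CPM in WT 1 to 4. Both were close to silent in WT. Angptl6, an angiopoietin-like factor, rose by 2.99 ± 0.25, Inhba, the subunit of activin A, by 3.45 ± 0.47, and Fstl3, which binds activins, by 1.85 ± 0.26. Fgf1, a growth factor of heart muscle and fat, fell, with 212 ± 44.5 CPM in KO and 347 ± 40.8 CPM in WT (SD, n = 4 each, log2 fold change of Fgf1 -0.71 ± 0.17, adjusted p = 0.003). Igf1, a growth factor, was not called (0.52 ± 0.28).

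Genes for making amino acids rose in serine synthesis and in the mitochondrial folate cycle. Of 17 serine, glycine and one-carbon enzymes tested, 9 rose and 0 fell, with a median of 0.73. Phgdh, Psat1 and Psph catalyse the 3 steps of serine synthesis. Phgdh, the first, had 173, 131, 153 and 162 CPM in KO 1 to 4, against 0.922, 0.382, 0.683 and 1.81 CPM in WT 1 to 4. Psat1 had 79.1, 59.0, 97.5 and 79.7 CPM in KO 1 to 4, against 2.77, 1.72, 1.37 and 1.40 CPM in WT 1 to 4. Psph rose less, by 1.52 ± 0.25. In the mitochondrial arm of the folate cycle, Shmt2 rose by 1.65 ± 0.16, Mthfd2 by 6.62 ± 0.25, Mthfd1l by 2.72 ± 0.35 and Aldh1l2 by 3.32 ± 0.31. Mthfd2, which embryos and tumours use and adult tissue hardly expresses, had 248, 206, 287 and 279 CPM in KO 1 to 4, against 3.07, 1.91, 0.683 and 4.41 CPM in WT 1 to 4. In the cytosolic arm, Shmt1 rose by 1.78 ± 0.17, while Mthfd1, which covers the cytosolic steps, was not called (0.20 ± 0.13), nor was Tyms of thymidylate synthesis (0.39 ± 0.42).

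Asns, asparagine synthetase, had 426, 243, 379.9 and 381 CPM in KO 1 to 4, against 5.53, 2.87, 4.32 and 4.01 CPM in WT 1 to 4. Proline synthesis from glutamate rose at Aldh18a1 (165 ± 26.2 CPM in KO and 10.6 ± 2.32 CPM in WT, SD, n = 4 each) and at Pycr1, the mitochondrial reductase, by 5.66 ± 0.26. Cth, which makes cysteine from cystathionine, rose by 3.10 ± 0.41. Gpt, the cytosolic alanine transaminase, fell by 1.34 ± 0.16, while Gpt2, its mitochondrial counterpart, rose by 0.56 ± 0.15. Oat, which links ornithine to proline, fell by 0.52 ± 0.13. In all, 7 of 18 in that list rose and 2 fell.

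Of 22 carriers of amino acids tested, 10 rose, 0 fell and 12 were not called, with a median of 0.60. Slc7a5 and Slc3a2 encode the light and heavy chain of the large neutral amino acid transporter. Slc7a5 had 207, 170.0, 193 and 199 CPM in KO 1 to 4, against 8.30, 8.21, 6.60 and 7.22 CPM in WT 1 to 4, and Slc3a2 had 187 ± 46.7 CPM in KO and 40.9 ± 1.14 CPM in WT (SD, n = 4 each). Slc7a11, which shares that heavy chain and imports cystine, had 290 reads in all KO libraries and 2 in all WT libraries, 143 times as many (95% interval from counting alone, 39.2 to 1186). Slc6a9, a glycine carrier, rose by 4.54 ± 0.30, and Slc1a4, a carrier of alanine, serine and cysteine, by 3.78 ± 0.33. Slc7a3, a cationic amino acid carrier, had 523 reads in KO and 3 in WT, 172 times as many (58.5 to 836).

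The breakdown of branched-chain amino acids went the other way. Of 21 genes tested, 12 fell and 1 rose, with a median of -0.53. Ivd, the dehydrogenase of the leucine path, had 167, 182, 217 and 218 CPM in KO 1 to 4, against 407, 420.0, 497 and 484 CPM in WT 1 to 4. No KO library reached a WT library (log2 fold change of Ivd -1.20 ± 0.13, adjusted p = 4.6e-07). Bckdha, a subunit of the branched-chain dehydrogenase, fell by 0.63 ± 0.13 and Ppm1k, the phosphatase that activates it, fell by 1.43 ± 0.33. Hibadh of the valine path fell by 0.60 ± 0.11 and Mccc2 of the leucine path fell by 0.77 ± 0.13. Bcat1, the cytosolic transaminase, was the member that rose, by 2.98 ± 0.50, with 3.90 ± 1.21 CPM in KO and 0.503 ± 0.322 CPM in WT (SD, n = 4 each). The count of falls was 7 without KO 4, WT 3 or WT 4.

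Cytosolic and mitochondrial translation parted. Of 20 cytosolic tRNA synthetases tested, 17 rose and 0 fell, with a median of 1.53. Of 17 mitochondrial ones, 0 rose and 2 fell, with a median of -0.18, and 1 fell when any single BL6J library was left out. Gars (glycine) had 549, 386, 602 and 606 CPM in KO 1 to 4, against 93.9, 75.6, 70.6 and 68.0 CPM in WT 1 to 4. Sars (serine) rose by 2.56 ± 0.17, Nars (asparagine) by 2.33 ± 0.21 and Eprs (glutamate and proline) by 2.12 ± 0.21. Of the 3 not called, Dars (aspartate) stood at 0.52 ± 0.19 and Qars (glutamine) at -0.22 ± 0.11, and Dars passed the test without KO 2. Farsb, a subunit for phenylalanine, rose by 0.89 ± 0.14. Cars2 (mitochondrial cysteine) fell by 0.56 ± 0.15, against a rise of its cytosolic counterpart Cars by 2.11 ± 0.19. Gars and some other members of the cytosolic list also charge mitochondrial tRNA.

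Ribosomal protein genes rose as a family. Of 82 tested, 70 rose and 1 fell, with a median log2 fold change of 0.70. They took 3.95%, 4.15%, 3.55% and 3.56% of the scaled reads in KO 1 to 4, against 2.55%, 2.43%, 2.24% and 1.96% in WT 1 to 4. The groups did not overlap. Rpl10 had 1048, 1083, 961 and 917 CPM in KO 1 to 4, against 440.2, 429, 437 and 377 CPM in WT 1 to 4, Rps24 rose by 1.33 ± 0.18 and Rps12 by 1.13 ± 0.16. Rpl3l, the form of Rpl3 that striated muscle uses, was the member that fell, with 79.8, 69.4, 53.1 and 62.1 CPM in KO 1 to 4, against 408, 380.1, 382 and 342 CPM in WT 1 to 4. Rpl3 itself had 476, 456, 448 and 391 CPM in KO 1 to 4, against 118, 106, 101 and 73.0 CPM in WT 1 to 4. The order of the pair was turned round: Rpl3 per kb of exon exceeded Rpl3l in every KO library and lay below it in every WT library. Mitochondrial ribosomal proteins did not move as a family, with 8 of 78 rising, 7 falling and a median of -0.04. Many ribosomal protein genes, Eef1a1 and Slc25a5 have retrocopies, and how the authors' counting treated reads with several matches is not given in the sources used here. The count of mitochondrial members that fell was 3 or 4 without KO 2, KO 3, KO 4, WT 1, WT 2 or WT 3.

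Ribosome assembly rose with them, in 22 of 34 genes tested, with 0 falling and a median of 0.64. Nhp2, a core protein of small nucleolar particles that modify ribosomal RNA, rose by 1.79 ± 0.19. Gnl3 (nucleostemin) rose by 1.48 ± 0.24, Nop58, another particle core, by 1.62 ± 0.34 and Polr1e, a subunit of RNA polymerase I, by 1.12 ± 0.16. Of 38 translation factors, 23 rose and 2 fell, with a median of 0.51. Eef1a1, the elongation factor that brings tRNA to the ribosome, had 6203, 6041, 5982 and 6612 CPM in KO 1 to 4, against 825, 818, 793 and 787 CPM in WT 1 to 4, the largest rise of any gene in CPM. Eef2, the translocation factor, rose by 0.66 ± 0.16, with 3104 ± 213 CPM in KO and 1964 ± 142 CPM in WT (SD, n = 4 each). Eif2s2, the beta subunit of eIF2, rose by 1.57 ± 0.22, and Eif3c by 1.27 ± 0.12. Eif4e, the cap-binding protein, fell, with 155 ± 22.1 CPM in KO and 240.0 ± 30.1 CPM in WT (SD, n = 4 each, log2 fold change of Eif4e -0.64 ± 0.14, adjusted p = 0.0018).

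**Figure D3:**
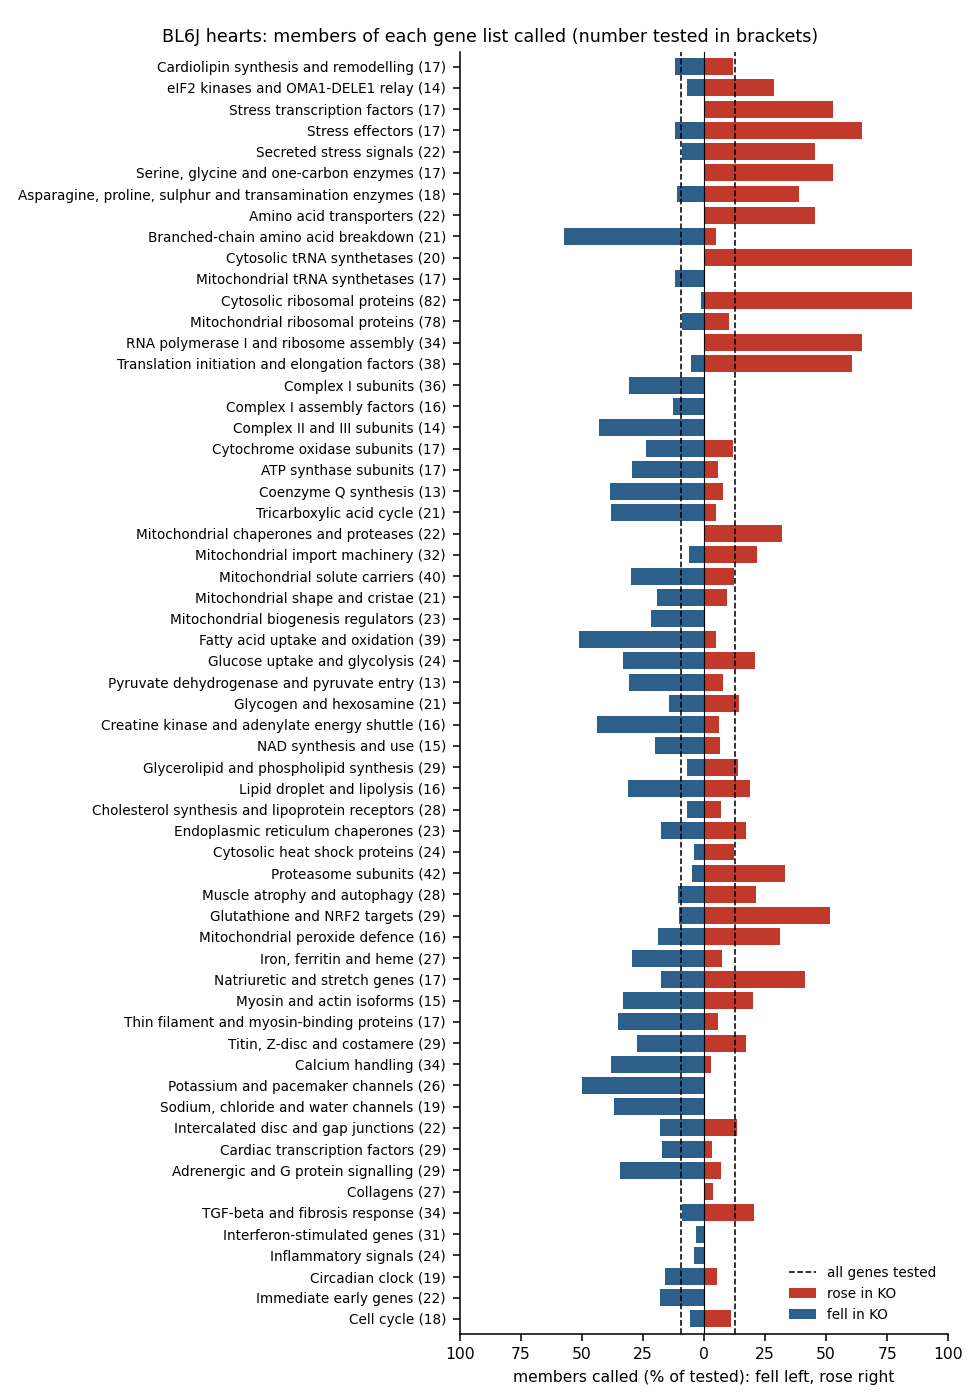
Share of the tested members of each gene list that rose (red, to the right) or fell (blue, to the left) in BL6J KO, in percent, for the lists with at least 10 members tested (number in brackets). Dashed lines mark the shares over all 12333 genes, 12.8% and 9.51%; tRNA synthetases and ribosomal proteins reach furthest right and branched-chain amino acid breakdown furthest left.

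Of 17 cardiolipin genes tested, 2 rose and 2 fell, with Taz one of those that fell, a share close to that of all genes (22.3%). Crls1, cardiolipin synthase, had 22.6, 22.7, 18.2 and 16.3 CPM in KO 1 to 4, against 20.1, 15.5, 15.9 and 17.9 CPM in WT 1 to 4. The groups overlapped (log2 fold change of Crls1 0.20 ± 0.15, adjusted p = 0.4). Prelid1 and Prelid3b, which encode carriers of phospholipids between the mitochondrial membranes, rose by 0.85 ± 0.21 and 0.57 ± 0.13. Hadha, the alpha subunit of the trifunctional protein that also acylates monolysocardiolipin in human cells, fell by 0.47 ± 0.11. Lclat1, another acyltransferase for cardiolipin, and Pnpla8, a phospholipase, were not called (-0.18 ± 0.18 and -0.07 ± 0.25).

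Nuclear genes for subunits of complexes I, II and III that were called fell, each by less than 1 on the log2 scale. The deposited counts hold no gene name with the mt- prefix of genes encoded in mitochondrial DNA, so those genes were not analysed here. Of 36 complex I subunits tested, 11 fell and 0 rose, with a median of -0.28. Ndufs3 had 318, 281, 286 and 297 CPM in KO 1 to 4, against 433, 453, 421 and 400.3 CPM in WT 1 to 4. Ndufv1 and Ndufa10 fell, at log2 fold changes of -0.44 ± 0.12 and -0.52 ± 0.15. Ndufs1, the largest subunit, fell by 0.64 ± 0.21. Ndufs1 was no longer called under 8 of 16 alternatives, with adjusted p up to 0.083, among them without KO 1, without KO 2, without KO 4, without WT 1, without WT 2, without WT 3 and without WT 4. Of 14 subunits of complexes II and III, 6 fell and 0 rose, among them Uqcrfs1, the Rieske protein, which fell by 0.68 ± 0.11, and Sdhc, a membrane anchor of succinate dehydrogenase, which fell by 0.56 ± 0.13. Of 17 ATP synthase subunits, 5 fell and 1 rose; Atp5a1, the alpha subunit, fell by 0.47 ± 0.11. The count of falls was 5 to 7 for complex I without KO 2, KO 4, WT 1 or WT 2, it was 3 for complexes II and III without KO 4, WT 2 or WT 3, and it was 1 to 3 for ATP synthase without KO 1, KO 2, KO 3, KO 4, WT 1, WT 2 or WT 3.

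Cytochrome oxidase differed by subunit form. Of 17 subunits, 4 fell and 2 rose. Cox7a1, the heart and muscle form, had 449, 400.1, 470.4 and 336 CPM in KO 1 to 4, against 1191, 962, 1175 and 785 CPM in WT 1 to 4. Cox8b, also a muscle form, had 434, 425, 544 and 410.2 CPM in KO 1 to 4, against 864, 971, 869.9 and 735 CPM in WT 1 to 4. Both were lower in every KO library. Cox8a and Cox6a1, the forms of other tissues, rose by 1.11 ± 0.14 and 1.10 ± 0.23. Cox6b2, known mainly from testis, fell from a low level, with 4 reads in the KO libraries together and 54 in the WT libraries (-3.66 ± 0.73). Coenzyme Q genes fell in 5 of 13 members, at log2 fold changes of -0.78 ± 0.16 for Coq8a and -0.75 ± 0.16 for Coq9, while Coq8b, a paralog of Coq8a, rose by 1.28 ± 0.21. In the tricarboxylic acid cycle, 8 of 21 fell and 1 rose. Ogdhl, a form of the oxoglutarate dehydrogenase subunit, had 43.4, 40.3, 41.2 and 42.0 CPM in KO 1 to 4, against 173, 205, 259 and 231 CPM in WT 1 to 4. Idh2 fell by 0.70 ± 0.11 and Idh3b fell by 0.66 ± 0.12. The count of falls in the cycle was 5 without KO 2 or WT 3.

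Among mitochondrial proteases, chaperones and import genes, rises outnumbered falls, as they did over all genes (12.8% rose and 9.51% fell). Of 22 chaperones and proteases, 7 rose and 0 fell. Lonp1, the main protease of the matrix, had 441, 368, 475 and 459 CPM in KO 1 to 4, against 139, 99.3, 117 and 118 CPM in WT 1 to 4. Hspa9, the matrix HSP70 that pulls proteins in, had 1357, 1142, 1644 and 1437 CPM in KO 1 to 4, against 701, 689, 653 and 659 CPM in WT 1 to 4. The groups were separate for both. Grpel2, an exchange factor of Hspa9, rose by 1.16 ± 0.20, and Hspd1, the HSP60 chaperonin, was not called (0.50 ± 0.24). Of 32 import genes, 7 rose and 2 fell. Gfer, a sulphydryl oxidase of the intermembrane space, rose by 0.95 ± 0.18, and Timm10 and Timm8a1, small chaperones of that space, by 0.82 ± 0.17 and 0.86 ± 0.18. Timm29, a partner of the TIM22 complex, fell by 0.65 ± 0.14. The count of import genes that rose was 4 without WT 3, near the share over all genes.

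Of 40 SLC25 genes tested, which encode carriers of the inner membrane, 12 fell and 5 rose, beside 9.51% falling and 12.8% rising among all genes. The 5 rises are near the share over all genes. Slc25a4, the adenine nucleotide translocase of heart and muscle, had 3195, 2884, 2821 and 3234 CPM in KO 1 to 4, against 5677, 5654, 5121 and 4603 CPM in WT 1 to 4. Slc25a5, the form of other tissues, had 749, 500.1, 693 and 567 CPM in KO 1 to 4, against 343, 359, 278 and 249 CPM in WT 1 to 4. The 2 forms moved in opposite directions with no overlap between the groups. Slc25a39, a glutathione carrier, rose by 1.44 ± 0.21, and Slc25a33, a pyrimidine nucleotide carrier, by 1.13 ± 0.27. Slc25a42, a coenzyme A carrier, fell by 0.90 ± 0.15, Slc25a11, the oxoglutarate carrier, fell by 0.63 ± 0.12, and Slc25a12, an aspartate-glutamate carrier, fell by 0.52 ± 0.10. Slc25a20, the carnitine carrier, had 138 ± 4.46 CPM in KO and 176 ± 9.76 CPM in WT (SD, n = 4 each, log2 fold change of Slc25a20 -0.35 ± 0.12, adjusted p = 0.033). Slc25a20 was no longer called under 8 of 16 alternatives, with adjusted p up to 0.11, among them without KO 1, without KO 2, without KO 3, without KO 4, without WT 2, without WT 3 and without WT 4. Among 21 genes of shape and cristae, Chchd10 rose, with 5831, 4263, 3384 and 4572 CPM in KO 1 to 4, against 2707, 2625, 2368 and 2428 CPM in WT 1 to 4, and Chchd6 of the MICOS complex rose by 1.81 ± 0.26, while Mtfp1, a fission protein of the inner membrane, fell by 0.89 ± 0.15. Of 23 regulators of mitochondrial genes, 0 rose and 5 fell. Ppara, the fatty acid receptor, had 51.7, 54.6, 62.5 and 55.8 CPM in KO 1 to 4, against 84.2, 101, 131 and 136 CPM in WT 1 to 4. Perm1, a muscle regulator, fell by 0.98 ± 0.12, and Esrrb, an orphan receptor, fell by 0.81 ± 0.16. Ppargc1a, the coactivator PGC-1alpha, had 146, 95.9, 90.3 and 112 CPM in KO 1 to 4, against 117, 256, 183 and 178 CPM in WT 1 to 4. The groups overlapped, and it was not called (log2 fold change of Ppargc1a -0.72 ± 0.53, adjusted p = 0.37).

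Among genes for burning fat, falls outnumbered rises. Of 39 genes of fatty acid uptake and oxidation tested, 20 fell and 2 rose, with a median of -0.54. Lpl, the lipase that frees fatty acids from circulating lipoproteins, had 2250, 2072, 2676 and 2665 CPM in KO 1 to 4, against 3851, 4606, 5484 and 4854 CPM in WT 1 to 4. Acsl1, which activates long-chain fatty acids, had 624, 781, 696 and 709.6 CPM in KO 1 to 4, against 1162, 1292, 1366 and 1425 CPM in WT 1 to 4. Neither overlapped. Within the mitochondrion, Cpt2 fell by 0.78 ± 0.13, Hadh fell by 0.71 ± 0.11, Acaa2, the last thiolase, fell by 0.89 ± 0.13 and Etfdh, which passes the electrons to coenzyme Q, fell by 0.89 ± 0.16. Cpt1b, the entry step of muscle, was not called, with 815, 695, 795 and 739 CPM in KO 1 to 4, against 818, 785, 808 and 781 CPM in WT 1 to 4. Cd36, the fatty acid receptor of the cell surface, was not called either (-0.42 ± 0.23). Acot2, a thioesterase of the matrix, rose, with 325 ± 37.9 CPM in KO and 115 ± 24.9 CPM in WT (SD, n = 4 each), while its cytosolic neighbour Acot1 fell by 1.69 ± 0.31. These genes are close in sequence, so the split of reads between them is uncertain. Acat1, the ketone thiolase, fell by 0.93 ± 0.14.

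Sugar genes changed by form. Of 24 genes of glucose uptake and glycolysis, 8 fell and 5 rose. Slc2a4 (GLUT4), the insulin-controlled transporter, had 267, 235, 252 and 266 CPM in KO 1 to 4, against 426, 445, 465 and 518 CPM in WT 1 to 4. Slc2a1 (GLUT1), the basal transporter, had 60.1, 31.2, 69.0 and 66.6 CPM in KO 1 to 4, against 21.8, 24.3, 17.5 and 19.7 CPM in WT 1 to 4. Pfkm and Eno3, muscle forms, fell, at log2 fold changes of -0.74 ± 0.12 and -1.22 ± 0.18, and Pfkp, the platelet form of phosphofructokinase, rose by 1.39 ± 0.15. At the pyruvate dehydrogenase, Pdp2, a phosphatase that activates it, fell by 1.81 ± 0.25, and Pdk4, the kinase that fasting raises, was not called, with 1234, 531, 469.7 and 842 CPM in KO 1 to 4, against 145, 598, 409 and 435 CPM in WT 1 to 4. Gyg, the glycogen primer glycogenin, rose, with 921 ± 169 CPM in KO and 315 ± 37.5 CPM in WT (SD, n = 4 each). Ckmt2, the creatine kinase of heart mitochondria, fell by 0.64 ± 0.16, and of 16 genes of the creatine kinase and adenylate shuttle 7 fell and 1 rose, with 4 falling without KO 1. Nmrk2, a nicotinamide riboside kinase of muscle, had 123, 116, 115 and 141 CPM in KO 1 to 4, against 15.7, 7.26, 2.50 and 5.02 CPM in WT 1 to 4. WT 1 stood above the other WT libraries, and without it the change of Nmrk2 was 4.62 in place of 3.97. Lpin1, a phosphatidate phosphatase and coactivator, had 71.4, 96.2, 79.2 and 91.1 CPM in KO 1 to 4, against 259, 306, 277 and 322 CPM in WT 1 to 4. Pemt, the enzyme that makes phosphatidylcholine in liver, rose by 2.19 ± 0.37 from a low level, and Dgat2, of triglyceride synthesis, fell by 0.77 ± 0.15. Fitm1 and Plin3, of lipid droplets, fell, at log2 fold changes of -1.57 ± 0.19 and -1.03 ± 0.13.

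Several proteins have a form used in most tissues and one used in striated muscle. For 18 such pairs, put together after their values were seen and so given with no test of the set, the share of the general form in the pair was computed from CPM per kb of exon. It was higher in all KO than in all WT libraries for 13 pairs and lower for 0. The general form rose in 10 pairs, the muscle form fell in 9, and both occurred in 6. The share of Eef1a1 beside Eef1a2 was 69.0% to 71.1% in KO and 19.4% to 21.9% in WT. That of Rpl3 averaged 77.7% ± 2.57 in KO and 11.9% ± 1.37 in WT (SD, n = 4 each). For Slc25a5 it was 19.9% to 26.0% in KO and 7.17% to 8.32% in WT, and for Cox8a 25.1% to 33.4% in KO and 8.96% to 9.73% in WT. The pairs whose shares overlapped were those of carnitine palmitoyltransferase 1, glycogen phosphorylase, cytosolic creatine kinase, phosphorylase kinase alpha and fatty acid binding protein. Eef1a2 itself was not called (2213 ± 148 CPM in KO and 2546 ± 216 CPM in WT, SD, n = 4 each). General forms are also the forms of the other cell types of the heart, and in whole tissue a change in the number of cells of a type and a change of RNA per cell cannot be told apart.

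**Figure D4:**
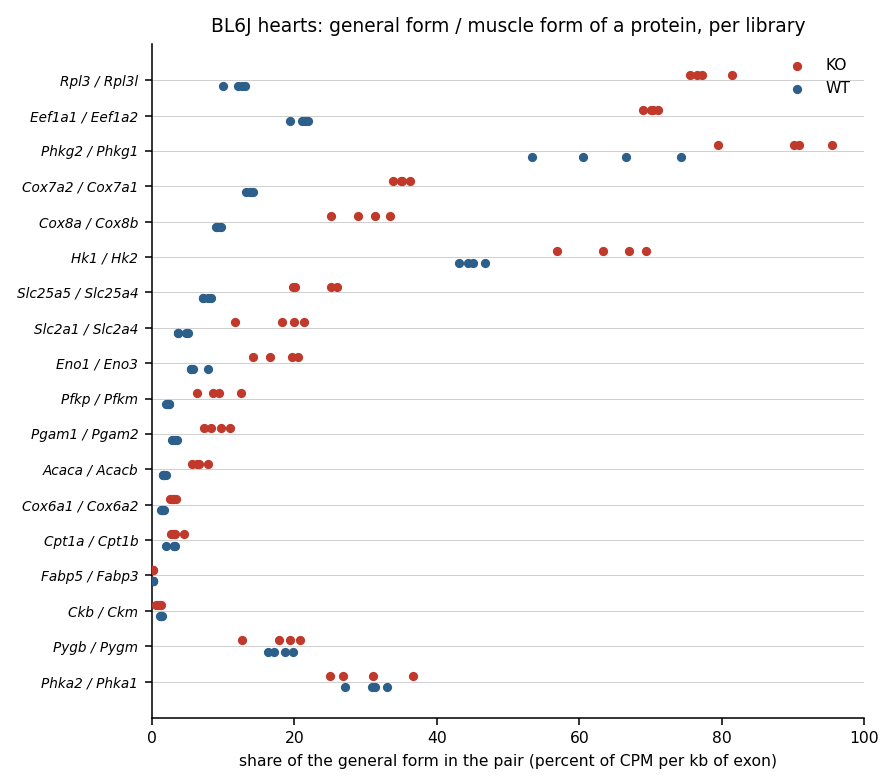
Share of the general form in each of 18 pairs of a general and a muscle form (rows), as percent of their summed CPM per kb of exon, in the BL6J KO (red, above) and WT (blue, below) libraries. Points are single libraries; the KO points lie to the right of all WT points in 13 pairs.

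Several load-responsive genes of the ventricle rose. Of 17 natriuretic and stretch genes, 7 rose and 3 fell, and the count of falls was 1 without KO 1, KO 3 or WT 4. Nppa, the atrial natriuretic peptide, had 1792, 879, 1480 and 1645 CPM in KO 1 to 4, against 486, 118, 129.7 and 182 CPM in WT 1 to 4. Ankrd1, a titin-bound repressor, had 3647, 3033, 5024 and 5214 CPM in KO 1 to 4, against 2043, 923, 720.2 and 739 CPM in WT 1 to 4. Xirp2, a protein of the cell ends, had 3667, 2191, 2940 and 4557 CPM in KO 1 to 4, against 1225, 887, 696 and 739 CPM in WT 1 to 4. The groups were separate for these genes, and WT 1 was the highest WT library for each. Fhl1, a stretch sensor on titin, rose by 2.26 ± 0.19, and Uchl1, a ubiquitin hydrolase, by 3.84 ± 0.21, while Fhl2 fell by 0.66 ± 0.15. Acta1, the skeletal actin of fetal hearts, had 10583, 5145, 7052 and 8961 CPM in KO 1 to 4, against 6339, 2148, 753 and 1068 CPM in WT 1 to 4. WT 1 lay above KO 2, and the change was 1.62 ± 0.46 with it and 2.58 without it (adjusted p = 1.1e-05). The call was lost when the BL6J libraries were fitted alone (adjusted p = 0.15). Nppb, the B-type peptide, had 1950, 456, 1478 and 1838 CPM in KO 1 to 4, against 1157, 687, 216 and 312 CPM in WT 1 to 4. KO 2 lay below 2 WT libraries (log2 fold change of Nppb 1.27 ± 0.44, adjusted p = 0.045). Nppb was no longer called under 10 of 16 alternatives, with adjusted p up to 0.22, among them without KO 1, without KO 3, without KO 4, without WT 2, without WT 3 and without WT 4. Myh7, the slow myosin, had 76.0, 111, 200.1 and 578 CPM in KO 1 to 4, against 159, 43.0, 16.6 and 13.8 CPM in WT 1 to 4. KO 4 stood far above the others (log2 fold change of Myh7 2.04 ± 0.67, adjusted p = 0.036), and without it the change was 1.14 (adjusted p = 0.2), while it was 3.29 without WT 1. Myh7 was no longer called under 8 of 16 alternatives, with adjusted p up to 0.2, among them without KO 3, without KO 4, without WT 2, without WT 3 and without WT 4.

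**Figure D5:**
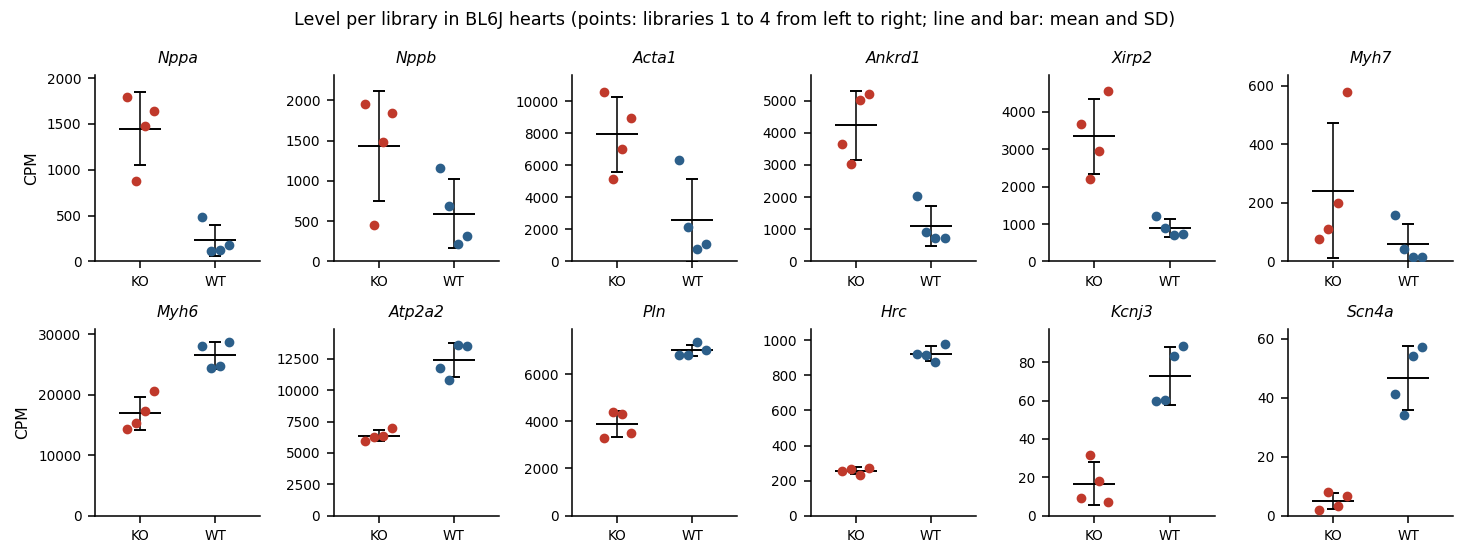
Level in CPM (vertical axes, each from 0) of 12 genes of load response, sarcomere, calcium handling and ion channels in BL6J KO (red, left) and WT (blue, right). Points are libraries 1 to 4, lines the mean and bars the SD; WT 1 is the highest WT library for the 6 genes from Nppa to Myh7, and KO and WT overlap for Nppb, Acta1 and Myh7.

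In the sarcomere, Myh6, the fast myosin of adult mouse heart, had 14390, 15322, 17316 and 20542 CPM in KO 1 to 4, against 28023, 24488, 24775 and 28704 CPM in WT 1 to 4. Tnni3, cardiac troponin I, fell by 0.53 ± 0.14, and Mybpc2, fast skeletal myosin-binding protein C, fell by 2.16 ± 0.28. Acta2, smooth muscle actin, rose by 1.93 ± 0.23, with 1578 ± 504 CPM in KO and 415 ± 84.3 CPM in WT (SD, n = 4 each). Thin filament and myosin-binding genes fell in 6 of 17 and rose in 1, Tnni1, the slow skeletal troponin I of fetal hearts, with 53 reads in the KO libraries together and 3 in the WT libraries (3.93 ± 0.72). At the Z-disc, Myot (myotilin) had 11.6, 3.82, 5.50 and 8.26 CPM in KO 1 to 4, against 118, 103, 61.0 and 61.0 CPM in WT 1 to 4. Cmya5, a large anchoring protein, fell by 1.69 ± 0.22, and Tcap, the titin cap, fell by 1.01 ± 0.28. Flnc, filamin of muscle, rose by 1.37 ± 0.23, and Synpo2l by 1.18 ± 0.22. Of 29 genes there, 8 fell and 5 rose, with 3 rising without KO 3 or KO 4.

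Calcium handling genes fell in 13 of 34 tested, with 1 rising and a median of -0.36. Atp2a2, the calcium pump SERCA2 of the sarcoplasmic reticulum, had 5951, 6240, 6365 and 6948 CPM in KO 1 to 4, against 11783, 10805, 13601 and 13525 CPM in WT 1 to 4. Pln, phospholamban, its inhibitor, had 3276, 4390, 4320 and 3522 CPM in KO 1 to 4, against 6828, 6831, 7345 and 7025 CPM in WT 1 to 4. Both fell with no overlap (log2 fold change of Atp2a2 -0.96 ± 0.15, adjusted p = 8.5e-05, log2 fold change of Pln -0.85 ± 0.19, adjusted p = 0.0017). Hrc, a calcium buffer of the reticulum, had 255, 268, 229.6 and 274 CPM in KO 1 to 4, against 924, 916, 876 and 978 CPM in WT 1 to 4. Jph2, which holds the reticulum to the T-tubule, fell by 0.73 ± 0.14 and Camk2a, a calmodulin kinase, fell by 1.46 ± 0.18. Ryr2, the release channel, was not called (950.2 ± 39.8 CPM in KO and 1238 ± 101 CPM in WT, SD, n = 4 each). Atp2a1, the pump SERCA1 of fast skeletal muscle, was the member that rose, with 6.44, 5.52, 4.64 and 11.8 CPM in KO 1 to 4, against 0.461, 0.764, 2.05 and 2.01 CPM in WT 1 to 4.

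None of the ion channels in either list rose. Of 26 potassium and pacemaker channels, 13 fell and 0 rose, with a median of -0.59, and of 19 sodium, chloride and water channels, 7 fell and 0 rose. Kcnj3, a subunit of the acetylcholine-gated channel, had 9.38, 31.8, 17.9 and 7.16 CPM in KO 1 to 4, against 59.6, 60.4, 83.3 and 88.7 CPM in WT 1 to 4. Kcnj12 and Kcnj2, inward rectifiers, fell, at log2 fold changes of -1.80 ± 0.19 and -1.38 ± 0.35. Hcn4, a pacemaker channel, fell by 2.76 ± 0.35. Scn4a, a sodium channel of skeletal muscle, had 2.02, 8.07, 3.09 and 6.61 CPM in KO 1 to 4, against 41.0, 34.2, 54.2 and 57.2 CPM in WT 1 to 4. Clcn1, the chloride channel of skeletal muscle, and Aqp4, a water channel, fell, at log2 fold changes of -4.61 ± 0.51 and -3.97 ± 0.57.

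In adrenergic and G protein signalling, 10 of 29 genes fell and 2 rose. Adra1a and Adra1b, the alpha-1 receptors, fell, at log2 fold changes of -2.22 ± 0.29 and -1.46 ± 0.30, and Adcy6, a main adenylyl cyclase of heart, fell by 0.75 ± 0.15. Chrm2, the muscarinic receptor, had 27.2, 77.5, 51.9 and 28.8 CPM in KO 1 to 4, against 85.3, 103, 142 and 125 CPM in WT 1 to 4. Grk5, a kinase that desensitises receptors, rose by 1.36 ± 0.16. Dbh, which makes noradrenaline in sympathetic nerves, had 11 reads in the KO libraries together and 125 in the WT libraries (-3.44 ± 0.48). Among cardiac transcription factors, 5 of 29 fell and 1 rose, beside 9.51% falling and 12.8% rising over all genes. Gata6 fell by 0.56 ± 0.15 and Wwtr1 (TAZ of the Hippo path, unrelated to tafazzin) rose by 0.48 ± 0.12. The count of falls there was 9 without KO 2 and 2 without KO 3 or WT 4.

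Among antioxidant genes, rises outnumbered falls. Of 29 glutathione and NRF2 targets, 15 rose and 3 fell, with a median of 0.58. Of the falls, 1 was left without WT 2. Srxn1, sulfiredoxin, had 122, 60.7, 113 and 119 CPM in KO 1 to 4, against 26.4, 26.9, 20.7 and 21.3 CPM in WT 1 to 4. Hmox1, heme oxygenase 1, had 70.8, 27.6, 52.7 and 86.8 CPM in KO 1 to 4, against 11.2, 13.8, 10.2 and 17.1 CPM in WT 1 to 4. Gclm and Gss, of glutathione synthesis, rose by 1.16 ± 0.22 and 1.72 ± 0.18, and Txnrd1, thioredoxin reductase, by 1.00 ± 0.18. TGACNNNGC, the core of the antioxidant response element, was present on either strand in 9 of 24 genes of that list with a window (37.5%). It was present in 17.0% of all tested genes with a window. Among them it was present in 18.6% of those that rose, in 163 of the 905 that fell and in 16.6% of those not called. Counted by single windows in place of genes, the share over all windows was 12.4%. Nnt, the transhydrogenase of the inner membrane, had 299.8, 331, 353 and 354 CPM in KO 1 to 4, against 443, 358, 446 and 388 CPM in WT 1 to 4. It was not called (log2 fold change of Nnt -0.29 ± 0.12, adjusted p = 0.097). Cat, catalase, and Gpx3, a secreted peroxidase, rose by 0.78 ± 0.11 and 1.22 ± 0.24, while Sod2, the matrix dismutase, fell by 0.55 ± 0.13. Mb, myoglobin, had 11723, 11030, 10381 and 12959 CPM in KO 1 to 4, against 27893, 23956, 22978 and 20680 CPM in WT 1 to 4, the largest fall of any gene in CPM. Of 27 genes of iron, ferritin and heme, 8 fell and 2 rose. Alas1, the first step of heme synthesis, fell by 0.80 ± 0.12 and Ftl1, the ferritin light chain, rose by 0.96 ± 0.20.

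Protein turnover changed in parts. Of 42 proteasome subunits, 14 rose and 2 fell, with a median of 0.26; the count of rises was 8 or 9 without KO 1, KO 3, WT 2, WT 3 or WT 4. Psmb1 and Psma5, of the core, rose by 0.88 ± 0.14 and 0.80 ± 0.15, and Psme1, an activator of the immune form, fell by 0.99 ± 0.18. Sqstm1 (p62), an autophagy receptor, had 1132, 568, 1144 and 1306 CPM in KO 1 to 4, against 453, 384, 349 and 351 CPM in WT 1 to 4. Ctsl, a lysosomal protease, rose by 1.91 ± 0.18, while Trim63 (MuRF1), a ubiquitin ligase of the sarcomere, and Pink1, a kinase of mitophagy, fell, at log2 fold changes of -0.75 ± 0.19 and -0.73 ± 0.15. Chaperones of the endoplasmic reticulum went both ways, with 4 of 23 rising and 4 falling, beside 12.8% rising and 9.51% falling over all genes. Hspa5 (BiP) fell by 0.63 ± 0.21 and Ero1l, an oxidase, rose by 1.60 ± 0.26. Hspa5 was no longer called under 7 of 16 alternatives, with adjusted p up to 0.082, among them without KO 1, without KO 2, without KO 4, without WT 2, without WT 3 and without WT 4. The count of falls was 1 or 2 without KO 1, KO 2, KO 4, WT 1, WT 3 or WT 4.

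Few collagen and immune genes were called. Of 27 collagens tested, 1 rose, Col8a1, by 1.06 ± 0.24, and 0 fell. Col1a1 had 104, 84.7, 56.3 and 102 CPM in KO 1 to 4, against 65.9, 74.9, 55.5 and 115 CPM in WT 1 to 4. The groups overlapped (log2 fold change of Col1a1 0.16 ± 0.31, adjusted p = 0.77). Postn, periostin of activated fibroblasts, had 91.6, 52.4, 64.1 and 86.3 CPM in KO 1 to 4, against 57.5, 23.7, 38.9 and 33.7 CPM in WT 1 to 4 (log2 fold change of Postn 0.93 ± 0.30, adjusted p = 0.026). Postn was no longer called under 5 of 16 alternatives, with adjusted p up to 0.093, among them without KO 1, without KO 4, without WT 2, without WT 3 and without WT 4. Of 34 genes of the TGF-beta response, 7 rose and 3 fell, beside 12.8% rising and 9.51% falling over all genes. Tgfb2 had 81.3, 46.7, 97.2 and 117 CPM in KO 1 to 4, against 12.9, 8.21, 7.06 and 6.42 CPM in WT 1 to 4. Ctgf rose by 2.01 ± 0.39, Thbs4 by 1.75 ± 0.33 and Cilp by 1.80 ± 0.38, and Ltbp1 fell by 1.54 ± 0.22. Of 31 interferon-stimulated genes 0 rose and 1 fell (Gbp2), and of 24 inflammatory genes 0 rose and 1 fell (Cxcl14), both below the shares of all genes. The count for interferon was 2 without KO 2 and 5 without WT 4, and that for inflammation was 4 without KO 1 and 2 without KO 2 or WT 1. Gbp2 was no longer called under 6 of 16 alternatives, with adjusted p up to 0.14, among them without KO 1, without KO 3, without KO 4, without WT 1 and without WT 2. Cxcl14 was no longer called under 5 of 16 alternatives, with adjusted p up to 0.16, among them without KO 1, without KO 3, without KO 4, without WT 2 and without WT 4.

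Markers of cell types were summed per library. Ventricular cardiomyocyte markers ran from 68681 to 75797 CPM in KO and from 90208 to 103585 CPM in WT, and 5 of 10 fell with 0 rising. Leaving out KO 3, KO 4, WT 1 or WT 3 brought that count to 3. Atrial markers ran from 1344 to 2071 CPM in KO and from 175 to 575 CPM in WT, mostly Nppa. Of 10 tested, 2 rose, Nppa among them, and 0 fell. Log2 fold changes were positive for 8, with a median of 1.55. Myl7, the atrial light chain, had 37.7, 76.4, 48.9 and 3.67 CPM in KO 1 to 4, against 9.53, 3.25, 8.65 and 17.1 CPM in WT 1 to 4. KO 4 lay below most WT libraries, and neither Myl7 nor Myl4 (2.36 ± 1.00) was called. Pacemaker and conduction markers fell in 6 of 10, although their sum, mostly Igfbp5, overlapped at 225 to 321 CPM in KO and 275 to 386 CPM in WT. Fibroblast markers summed to 855 to 1063 CPM in KO and 1054 to 1460 CPM in WT. Of 11 tested, 2 fell and 0 rose, with a median of -0.04. Endothelial markers summed to 852 to 1950 CPM in KO and 1554 to 2190 CPM in WT, and Pecam1 was not called (128 ± 42.2 CPM in KO and 172 ± 18.3 CPM in WT, SD, n = 4 each). All 12 endothelial markers tested had negative log2 fold changes, with a median of -0.37, and 2 fell. Without single libraries, the count of falls ran from 0 to 2 for both fibroblast and endothelial markers. Macrophage markers summed to 385 to 806 CPM in KO and 316 to 610 CPM in WT, with 0 of 12 called. Skeletal muscle markers summed to 64.1 to 82.0 CPM in KO and 70.6 to 89.5 CPM in WT. Myl1, a myosin light chain, was the highest of them in every library, with 47.2 ± 13.3 CPM in KO and 57.2 ± 12.0 CPM in WT (SD, n = 4 each). Of the 11 in the table, 0 to 2 were at 0 in a KO library and 1 to 3 in a WT library; 4 were tested, and Atp2a1, the calcium pump of fast muscle, was the one called. Nerve and glia markers summed to 159 to 236 CPM in KO and 40.7 to 50.6 CPM in WT, without overlap. Of 7 tested, Uchl1 rose, Dbh fell and 5 were not called. Uchl1 was the 1 tested member with a positive log2 fold change. The other 6 were negative, and the median was -0.26. Adipocyte markers summed to 64.1 to 93.4 CPM in KO and 46.2 to 61.2 CPM in WT, also without overlap, but few of the markers made up these sums. Of 8 markers summed, 0 to 4 were at 0 in a KO library and 2 to 6 in a WT library. In WT 2, 6 were at 0 and the sum was 46.2 CPM. Of 3 tested, Cidea, a lipid droplet protein, rose by 0.61 ± 0.13 and 2 were not called. Cfd, a secreted adipocyte protease, had 2.76, 25.5, 2.06 and 0.367 CPM in KO 1 to 4, against 4.30, 0, 1.14 and 0.602 CPM in WT 1 to 4, highest in KO 2, and was not called. Smooth muscle and pericyte markers summed to 1885 to 3679 CPM in KO and 1830 to 2102 CPM in WT; of 10 tested, Acta2 rose and 2 fell. Sums of endocardial, mesothelial, lymphocyte and neutrophil markers overlapped between the groups. Erythroid markers ran from 104 to 318 CPM in KO and from 13.5 to 2469 CPM in WT, with 0 of 5 called. The part of these markers in the changes above was not tested.

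Immediate early genes, which respond to handling within minutes, fell in 4 of 22 with 0 rising; 7 fell without WT 1 or WT 3. Jun had 144, 172, 62.9 and 149 CPM in KO 1 to 4, against 349, 545, 306 and 568 CPM in WT 1 to 4, and Dusp1 fell by 1.67 ± 0.40. In the circadian clock, 3 of 19 fell and 1 rose, beside 9.51% falling and 12.8% rising over all genes. Hlf, an output factor, fell by 1.53 ± 0.25, and Dbp was not called, with 34.9, 87.2, 59.4 and 41.7 CPM in KO 1 to 4, against 194, 116, 131 and 105 CPM in WT 1 to 4. Only 1 clock gene fell without KO 4 or WT 1. Times of tissue collection are not given in the labels. Ccnd2, a cyclin of growth, had 271, 322, 364 and 322 CPM in KO 1 to 4, against 79.5, 62.5, 79.2 and 70.2 CPM in WT 1 to 4.

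The largest changes included genes that are close to silent in the normal heart. There were 16 genes with 0 to 3 reads over the 4 WT libraries and at least 5 CPM in KO, and 0 genes of the reverse kind. Soat2, which esterifies cholesterol in liver and gut, had 42.7, 26.1, 40.0 and 29.9 CPM in KO 1 to 4 and no read in WT, at least 247-fold higher if WT is set to 3 reads over the group. B4galnt2, a glycosyltransferase, was at least 133-fold higher and Cyb5r2, a reductase, at least 83.5-fold higher by the same floor. Fam227b and Vat1l were at least 47.0-fold and 45.7-fold higher. Vmn2r3, annotated as a vomeronasal receptor, had 783 reads in KO and 1 in WT, and Akr1b7, an aldose reductase of adrenal and gut, had 448 reads in KO and 1 in WT. Intervals of counts and floors cover counting error only. Among the falls, 2210407C18Rik had 2.21, 0, 0.343 and 0.734 CPM in KO 1 to 4, against 7.99, 22.5, 17.5 and 12.0 CPM in WT 1 to 4, Hnmt, which inactivates histamine, fell by 3.32 ± 0.40 and Ces1d, a carboxylesterase, fell by 3.61 ± 0.30. Cngb3, a cyclic nucleotide channel known from cones, fell by 4.23 ± 0.55.

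The response of BL6J was then set against the mean response of AJ-F1 and CAST-F1, which share no library with it. Of 12333 genes, 3 differed (0.0243%), and 774 had an unadjusted p under 0.05. Taz fell by 2.90 ± 0.20 in BL6J, against log2 fold changes of -4.49 in AJ-F1 and -4.51 in CAST-F1, a difference of 1.60 ± 0.28 (adjusted p = 0.042). Ephb1, an ephrin receptor, had 4.60, 4.67, 3.43 and 2.57 CPM in KO 1 to 4, against 8.45, 6.49, 4.55 and 5.42 CPM in WT 1 to 4, a log2 fold change of -0.73 in BL6J, -2.55 in AJ-F1 and -2.46 in CAST-F1, with a difference of 1.78 ± 0.30 (adjusted p = 0.042). Its BL6J groups overlapped. The change of Ephb1 within BL6J was called (log2 fold change of Ephb1 -0.73 ± 0.25, adjusted p = 0.036). Within BL6J, Ephb1 was no longer called under 5 of 16 alternatives, with adjusted p up to 0.16, among them without KO 3, without KO 4, without WT 1 and without WT 2. Atp2a1 had log2 fold changes of 2.47 in BL6J, -0.51 in AJ-F1 and -1.09 in CAST-F1, with a difference of 3.26 ± 0.57 (adjusted p = 0.042). These calls were close to the threshold. The count was 6 without AJ-F1 WT 3 and 0 or 1 without any other single library except BL6J WT 3 and AJ-F1 KO 2, was 0 with replicate number as a block, and was 32 with DESeq2's Wald test and 27 with limma-voom. All other genes described here, whatever their calls, were not shown to respond differently in BL6J.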

How the data were processed

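RNA from heart ventricles was read in 21 libraries, of which 8 are BL6J. The deposited table holds raw counts of reads per gene for 14732 genes, unnormalised. Per the submitters' processing notes, HISAT, featureCounts, DESeq2 and GRCm38.p6 were used. Their settings, the use of strand and the treatment of reads with several matches are not given in the sources used here.

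All 21 libraries were fitted in 6 groups with no covariate in edgeR 4.0.16 (R 4.3.3), with TMM factors, the filterByExpr filter and the robust quasi-likelihood test on the counts as deposited. BL6J KO over WT was the contrast, and the BL6J response was also set against the mean of the AJ-F1 and CAST-F1 responses. P-values were adjusted by Benjamini-Hochberg over 12333 genes, with 0.05 as the threshold. The biological coefficient of variation was 20.3%. CPM used TMM-scaled totals, and levels per kb used exon lengths of the annotation. Intervals are at 95%, and a count of 0 was read as 3 reads over the group. The fit was also run on simulated counts with the same coefficient of variation for every gene. These counts lack the differing spread of genes and the outlying libraries of the data, so the run cannot show how the fit handles them. Labels give no statement that each library is a separate animal, so p-values measure only the spread between these libraries, which may be technical. The total counts set the precision for weak genes: 1 CPM is about 4 to 7 reads. Deviations of same-numbered KO and WT libraries had r from -0.180 to 0.0815 over 4 pairs, within the range of other-numbered ones (-0.185 to 0.181). So few pairs cannot settle whether the numbers pair the libraries.

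The members of 61 gene lists and 15 marker lists were chosen with earlier results of these data known. Named genes were Taz and its neighbours within 250 kb, up to 4 called members per list by adjusted p, the 10 largest rises and falls in CPM and in log2 fold change (at least 5 CPM), genes whose response differed and a fixed panel. Further list members and the 18 pairs were named after their values were seen. The counts of genes rising and falling were recomputed with the size factors or the Wald test of DESeq2 1.42.0, upper-quartile scaling, limma-voom 3.58.1, a filter of 1 CPM in 3 samples or none, BL6J alone, a replicate block, a minimum fold of 1.2, and single libraries left out. Named genes were recomputed with all of these but the minimum fold, genes whose response differed with all but BL6J alone, and counts in lists with the Wald test, BL6J alone and single libraries left out. Some results are not reported here.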

Additional observations from a re-analysis of the deposited data

Results flagged for a closer look

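In groups of 4 libraries, 1 library stood apart from the other three by Dixon's criterion in 23 of 492 gene and group combinations looked at (4.67%), where chance flags about 1 in 20. KO 1 was high for Timm8a1 (41.4 CPM). KO 2 was high for Adra1b (39.9 CPM), Cfd (25.5 CPM) and Pink1 (494 CPM) and low for Atf3 (29.9 CPM), Cyb5r2 (6.79 CPM), Eprs (288 CPM), Gnl3 (22.3 CPM), Shmt1 (24.2 CPM) and Srxn1 (60.7 CPM). KO 4 was high for Gpt2 (68.3 CPM) and low for Gpt (11.2 CPM) and Pdp2 (7.34 CPM). WT 1 was high for Ankrd1 (2043 CPM), Eef1a2 (2868 CPM) and Qars (62.9 CPM). WT 2 was high for Cox6a1 (210.5 CPM) and Sod2 (766 CPM). WT 3 was low for Atf5 (28.7 CPM), Cat (390.4 CPM), Fstl3 (8.65 CPM), Nop58 (8.19 CPM) and Psme1 (75.6 CPM).

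Of the genes tested, 3 had a response in BL6J that differed by the interaction test from the mean of the other backgrounds: Taz by 1.60, Atp2a1 by 3.26 and Ephb1 by 1.78 on the log2 scale. Whether the residual Taz reads of the backgrounds come from the same part of the gene cannot be seen in counts per gene.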

How the results depend on the processing

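Of 257 genes named above and tested, 226 were called, and 215 of these kept the call under all 16 alternatives run on them (8 alternatives each leave out 1 BL6J library); the other 11 are given above where their values stand. The number of genes rising was 1583, and 1285 to 1649 without single libraries; the number falling was 1173, and 845 to 1294 without single libraries. Falling genes numbered 1962 with limma-voom and 733 with a fold change of at least 1.2. Members of the lists called numbered 595, and 495 to 595 without single libraries. Genes whose response differed in BL6J numbered 3, against 32 with DESeq2's Wald test, 27 with limma-voom, 0 with a fold change of at least 1.2 and 0 to 6 without single libraries. The replicate block gave 1317 rising, 951 falling and 0 differing. Of 4 KO libraries, 0 correlated best with the WT library of their own number, which cannot settle whether the numbers pair the libraries. Counts of 1 or 2 in a list moved between 0 and 5 without single libraries. The log2 fold changes of 4 genes that were not called crossed 0 when libraries were left out, from -0.026 to 0.19 for Dnase1l1, -0.0023 to 0.11 for Eif2ak1, -0.082 to 0.017 for Eif2ak3 and -0.27 to 0.077 for Eif2ak4. The cause of each change was not tested. With 4 libraries a group at these depths, a p that misses the threshold does not show that levels did not differ.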
